A study of Rattus norvegicus with 12 samples.

Results

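The genes examined were 10 fibroblast growth factor (FGF) ligands and receptors of the rat, namely the ligands Fgf1, Fgf2, Fgf7, Fgf10, Fgf18 and Fgf21 and the receptors Fgfr1, Fgfr2, Fgfr3 and Fgfrl1. They were taken by symbol from a table of 33294 genes, with earlier results of these data known, and 8 of the 10 passed the filter on low counts. RNA came from PAC1 cells, a smooth muscle cell (SMC) line of rat pulmonary artery, grown in serum-containing medium, for which the labels give the conditions of a more differentiated state. The 4 groups of 3 poly(A)-selected RNA-seq libraries received the control siRNA C2 (control) or an siRNA against RBPMS (RBPMS-KD), RBFOX2 (RBFOX2-KD) or QKI (QKI-KD, gene symbol Qk), and all carried transfection reagent. For its experiment with these siRNA targets, the study reports control cells that were less differentiated than those of its other experiment. Per the labels, 90 pmol of siRNA was given by reverse transfection, given again after 24 h, and followed by harvest 48 h later, whereas the study's methods describe longer intervals. All libraries came from 1 cell line and each target was depleted with 1 siRNA, and p-values measure the spread between these libraries. The study's methods call the replicates of each siRNA condition biological, while the labels do not say whether they were separate cultures.

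FGF ligands are extracellular proteins that bind receptor tyrosine kinases together with heparan sulphate chains on the cell surface or in the matrix. Ligand binding dimerises Fgfr1, Fgfr2 or Fgfr3, which then pass the signal through the adaptor Frs2 to the Ras-ERK and other pathways. Alternative splicing of the third immunoglobulin domain changes which ligands Fgfr1, Fgfr2 and Fgfr3 bind. Fgfrl1 binds FGFs but lacks the tyrosine kinase domain. In the vessel wall, Fgf1 and Fgf2 are known as mitogens of SMCs, and FGF signalling through Fgfr1 is known to oppose the contractile state. RBPMS, RBFOX2 and QKI are RNA-binding proteins that regulate splicing, but the values here are gene totals, and splice forms were not analysed here.

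The siRNAs are shown because they define the groups. Their sense strands, written in lower case as the study lists them, were as follows.
C2: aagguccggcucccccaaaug
RBPMS: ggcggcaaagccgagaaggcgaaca
RBFOX2: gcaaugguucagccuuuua
QKI: ggacuuacagcuaaacaac
Each target was lowest in its own knockdown, with a log2 fold change against control of −2.50 (SE 0.0646) for Rbpms, −2.05 (SE 0.0436) for Rbfox2 and −3.13 (SE 0.0396) for Qk. The targets also changed in the other knockdowns. Rbpms was at −0.81 in RBFOX2-KD (adjusted p 2.1e-09) and −0.49 in QKI-KD (adjusted p 9.32e-07). Qk was at −0.42 in RBFOX2-KD (adjusted p 1.7e-08) and 0.18 in RBPMS-KD (adjusted p 0.000297). Rbfox2 was at −0.12 in RBPMS-KD (adjusted p 0.0193) and −0.15 in QKI-KD (adjusted p 0.00428).

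Library totals ranged from 111 to 152 M counts. The 8 smooth muscle markers examined were all expressed, and their summed level, in CPM (counts scaled to the library total), was 2109 to 2175 in control, 1069 to 1176 in RBPMS-KD, 827 to 924 in RBFOX2-KD and 1441 to 1526 in QKI-KD. By adjusted p, 6 of the 8 were lower and 2 higher in RBPMS-KD, and 5 lower and 2 higher in RBFOX2-KD and in QKI-KD. Summed endothelial markers lay at 8.75 to 10.8 CPM in control, 8.90 to 9.18 in RBPMS-KD, 5.22 to 5.81 in RBFOX2-KD and 6.53 to 6.855 in QKI-KD. Single endothelial markers did not all follow the sum. By adjusted p, 3 of 5 tested were higher and 1 lower in RBPMS-KD and in QKI-KD, and 0 higher and 2 lower in RBFOX2-KD. Leukocyte markers reached at most 1.65 CPM in control and lay at 1.77 to 2.55 in RBPMS-KD and RBFOX2-KD and 5.45 to 6.03 in QKI-KD. By adjusted p, 1 of 3 tested was higher in RBPMS-KD, 1 in RBFOX2-KD and 2 in QKI-KD, and 0 were lower. In QKI-KD Csf1r rose 8.98-fold (adjusted p 8.94e-11) and Cd68 1.90-fold (adjusted p 6.46e-06). Laptm5 had a log2 fold change of −0.64 there (adjusted p 0.355). Itgam and Ptprc were not tested, and Ptprc had at most 4 counts in any library. Striated muscle markers lay at 1.12 to 1.35 CPM in control, 2.27 to 2.59 in RBPMS-KD, 2.78 to 3.50 in RBFOX2-KD and 1.65 to 1.91 in QKI-KD, and Myod1 rose in each knockdown (4.71-, 4.93- and 2.91-fold in the same order, largest adjusted p 1.17e-05). By adjusted p, 1 of 3 tested striated muscle markers was higher in RBPMS-KD, 2 in RBFOX2-KD and 1 in QKI-KD, where 1 was lower. Ckm did not pass the test in any knockdown (adjusted p 0.068 to 0.865). Summed epithelial markers lay between 29.4 and 31.7 CPM in control, 36.3 and 44.2 in RBPMS-KD, 72.0 and 73.9 in RBFOX2-KD and 32.3 and 34.2 in QKI-KD, nearly all of it Krt8, while Krt19 was at or below 3 counts in all 12 libraries. The part of these marker shifts in the FGF results was not tested.

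Levels are CPM scaled by the TMM method and are compared only between groups for the same gene, because transcript length was not taken into account. A gene was called where its adjusted p was under 0.05 and its log2 fold change passed 1 in size, the thresholds of the study's methods, and "rose" or "fell" is used for an adjusted p under 0.05 alone. The 3 comparisons with control share the same 3 control libraries, so differences between knockdowns were tested directly.

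More of the ligand and receptor genes were called in QKI-KD than in the other knockdowns. Of the 8 members tested, 5 were called in QKI-KD, where Fgf7, Fgfr2 and Fgfr3 were higher and Fgf1 and Fgfr1 lower than in control, against 17.5% of all 18438 genes tested. In RBPMS-KD 2 of 8 were called, Fgf7 higher and Fgf1 lower, against 9.66% of all genes, and in RBFOX2-KD 2 of 8 were called, Fgf7 higher and Fgf2 lower, against 11.7% of all genes. Fgfr2 in QKI-KD, at a log2 fold change of 1.006, lay just inside the threshold, and Fgfrl1 in RBPMS-KD, at −0.999, just outside it. Without library QKI-KD 3 the count in QKI-KD was 3, since Fgf7 then had a log2 fold change of 0.995 and Fgfr2 of 0.993, both with an adjusted p still below 0.05. By adjusted p alone, 4 of 8 members differed from control in RBPMS-KD, 8 of 8 in RBFOX2-KD and 7 of 8 in QKI-KD, against 59.4%, 60.3% and 66.9% of all genes, so by that rule the share among the members lay below the background in RBPMS-KD and above it in the other two. The libraries did not overlap with control for 5, 7 and 7 of the 8 members in RBPMS-KD, RBFOX2-KD and QKI-KD, against 61.7%, 68.6% and 72.2% of all genes. In bulk RNA, fewer cells of a type and less RNA per cell cannot be told apart.

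Between knockdowns, 3 of 8 members were called in RBPMS-KD against RBFOX2-KD (7.52% of all genes), 4 of 8 in RBPMS-KD against QKI-KD (12.2%) and 3 of 8 in RBFOX2-KD against QKI-KD (18.4%). The genes called were Fgf1, Fgf2 and Fgf18 in the first comparison, Fgf18, Fgfr1, Fgfr2 and Fgfr3 in the second, and Fgf1, Fgf2 and Fgfr1 in the last. By adjusted p alone, 6 of 8 members differed in each of these comparisons, against 56.7%, 61% and 68.5% of all genes in the same order.

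**Figure D1:**
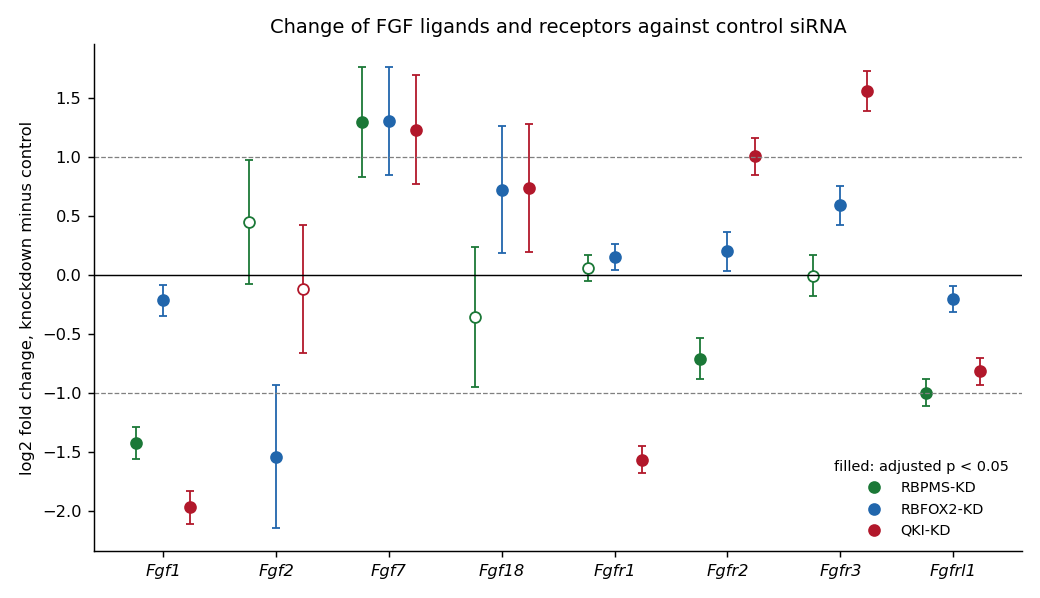
Log2 fold change of the 8 tested FGF genes in each knockdown minus control (points), with bars of 1.96 SE from the edgeR fit and dashed lines at an absolute log2 fold change of 1. Filled points have an adjusted p under 0.05. Fgf7 lies between 1.23 and 1.31 in all 3 knockdowns, whereas Fgfr1, Fgfr2 and Fgfr3 separate QKI-KD from the others.

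Among the member ligands, Fgf1, which binds all FGF receptors, held most of the counts. In control it was at 28.7, 26.4 and 31.7 CPM, in RBPMS-KD at 11.1, 9.84 and 11.5 CPM, in RBFOX2-KD at 25.8, 25.2 and 23.8 CPM, and in QKI-KD at 7.43, 6.97 and 7.76 CPM. All libraries of RBPMS-KD and QKI-KD lay far below those of control and RBFOX2-KD, and the 4 groups did not overlap. Fgf1 fell by 1.42 on the log2 scale in RBPMS-KD (SE 0.0704, adjusted p 2.21e-11) and by 1.97 in QKI-KD (SE 0.0724, adjusted p 1.52e-13), which is 2.68-fold and 3.92-fold. The fall in RBFOX2-KD was 0.21 on the log2 scale (adjusted p 0.0105), and without library control 3 it missed the threshold (adjusted p 0.0741). QKI-KD was also below RBPMS-KD, with a log2 difference, RBPMS-KD minus QKI-KD, of 0.55 (SE 0.0746, adjusted p 5.89e-06). The order of levels was therefore control, RBFOX2-KD, RBPMS-KD and QKI-KD, with each step past the threshold and only the first resting on a single library. The smooth muscle marker sum was lower in all 3 knockdowns too, and was lowest in RBFOX2-KD. The part of the marker shifts in the Fgf1 level was not tested. The sum is mostly Acta2, Tagln and Myl9, and single markers went other ways, with Myh11 higher in RBFOX2-KD (log2 fold change 1.05, adjusted p 3.45e-09), Myocd higher in QKI-KD (0.78, adjusted p 2.01e-09) and Tagln at 0.03 in QKI-KD (adjusted p 0.592).

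Fgf1 made up 96.2 ± 0.584% (SD, n = 3) of the counts of the 6 ligands in control, 86.0 ± 0.193% in RBPMS-KD, 93.8 ± 0.170% in RBFOX2-KD and 80.2 ± 2.39% in QKI-KD, without correction for length. The summed level of these 6 ligands followed it, with 30.1 ± 2.58 CPM in control, 12.6 ± 0.996 in RBPMS-KD, 26.6 ± 1.13 in RBFOX2-KD and 9.22 ± 0.748 in QKI-KD. Fgf22, a secreted ligand that is no member, is left out of the shares and sums. Its mean was 18.68 CPM in control, 20.42 in RBPMS-KD, 17.12 in RBFOX2-KD and 19.24 in QKI-KD. For each of these shares and sums the exact permutation test of a knockdown against control gave p = 0.1, two-sided, the smallest that 3 against 3 libraries allow.

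Fgf7, or keratinocyte growth factor, which is made by mesenchymal cells and acts on the epithelial splice form of Fgfr2, was low in all groups but higher after every knockdown. Control libraries held 0.384, 0.457 and 0.323 CPM (47, 68 and 44 counts), RBPMS-KD 1.07, 0.961 and 0.837 CPM, RBFOX2-KD 1.10, 1.02 and 0.764 CPM, and QKI-KD 0.917, 0.626 and 1.19 CPM. All 9 knockdown libraries lay above all 3 control libraries, and the 3 knockdowns overlapped one another. Fgf7 rose by a log2 fold change of 1.30 in RBPMS-KD (SE 0.236, adjusted p 0.000142), 1.31 in RBFOX2-KD (SE 0.233, adjusted p 0.000114) and 1.23 in QKI-KD (SE 0.236, adjusted p 0.000182). The largest log2 difference between knockdowns, RBFOX2-KD minus QKI-KD, was 0.07 (95% interval −0.35 to 0.50, adjusted p 0.778). Differences within that interval remain possible.

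Fgf2, or basic FGF, responded to RBFOX2 depletion and did not pass the test in the other knockdowns. It was at 0.384, 0.376 and 0.382 CPM in control, at 0.517, 0.473 and 0.573 CPM in RBPMS-KD, at 0.130, 0.0854 and 0.176 CPM in RBFOX2-KD, and at 0.354, 0.226 and 0.468 CPM in QKI-KD. The RBFOX2-KD libraries, with 18, 12 and 24 counts, were the lowest of all 12, and those of QKI-KD overlapped control. Fgf2 fell by 1.54 on the log2 scale in RBFOX2-KD (SE 0.309, adjusted p 0.000349) and was lower there than in RBPMS-KD (RBPMS-KD minus RBFOX2-KD 1.99, SE 0.304, adjusted p 2.73e-05) and QKI-KD (RBFOX2-KD minus QKI-KD −1.42, SE 0.313, adjusted p 0.000653). The log2 fold change was 0.45 in RBPMS-KD (adjusted p 0.164) and −0.12 in QKI-KD (adjusted p 0.724). In RefSeq the span of Fgf2 overlaps that of Nudt6, known as its antisense gene, and the sources used here do not say if strand was used in counting, so reads of the pair cannot be told apart.

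Fgf18, which acts mainly on Fgfr3 in cartilage and bone, separated RBPMS-KD from the other knockdowns. It was at 0.302, 0.329 and 0.331 CPM in control, 0.235, 0.148 and 0.382 in RBPMS-KD, 0.513, 0.526 and 0.551 in RBFOX2-KD, and 0.397, 0.644 and 0.573 in QKI-KD. The RBFOX2-KD and QKI-KD libraries lay above all control and RBPMS-KD libraries, while RBPMS-KD overlapped control. Fgf18 was lower in RBPMS-KD than in RBFOX2-KD (log2 difference −1.07, SE 0.289, adjusted p 0.00434) and QKI-KD (−1.09, SE 0.291, adjusted p 0.00374). Against control the log2 fold change was 0.72 in RBFOX2-KD (adjusted p 0.0315) and 0.74 in QKI-KD (adjusted p 0.0268), but these rises lost the threshold in 6 of 6 and 5 of 6 fits that left out 1 library, with adjusted p of up to 0.0804 and 0.11. In RBPMS-KD it was −0.35 (adjusted p 0.336), and it passed the test only when library RBPMS-KD 3 was left out (−0.77, adjusted p 0.0426).

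Fgf10, a mesenchymal ligand of the epithelial form of Fgfr2, and Fgf21, an endocrine ligand that needs the co-receptor Klb, were at the limit of detection. Fgf10 had 2 counts in control 2, 4 in RBPMS-KD 3, 2 in QKI-KD 3 and 0 in the other 9 libraries, and Fgf21 had between 0 and 8 counts. Neither was tested, and a difference between groups was not detectable at this depth.

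**Figure D2:**
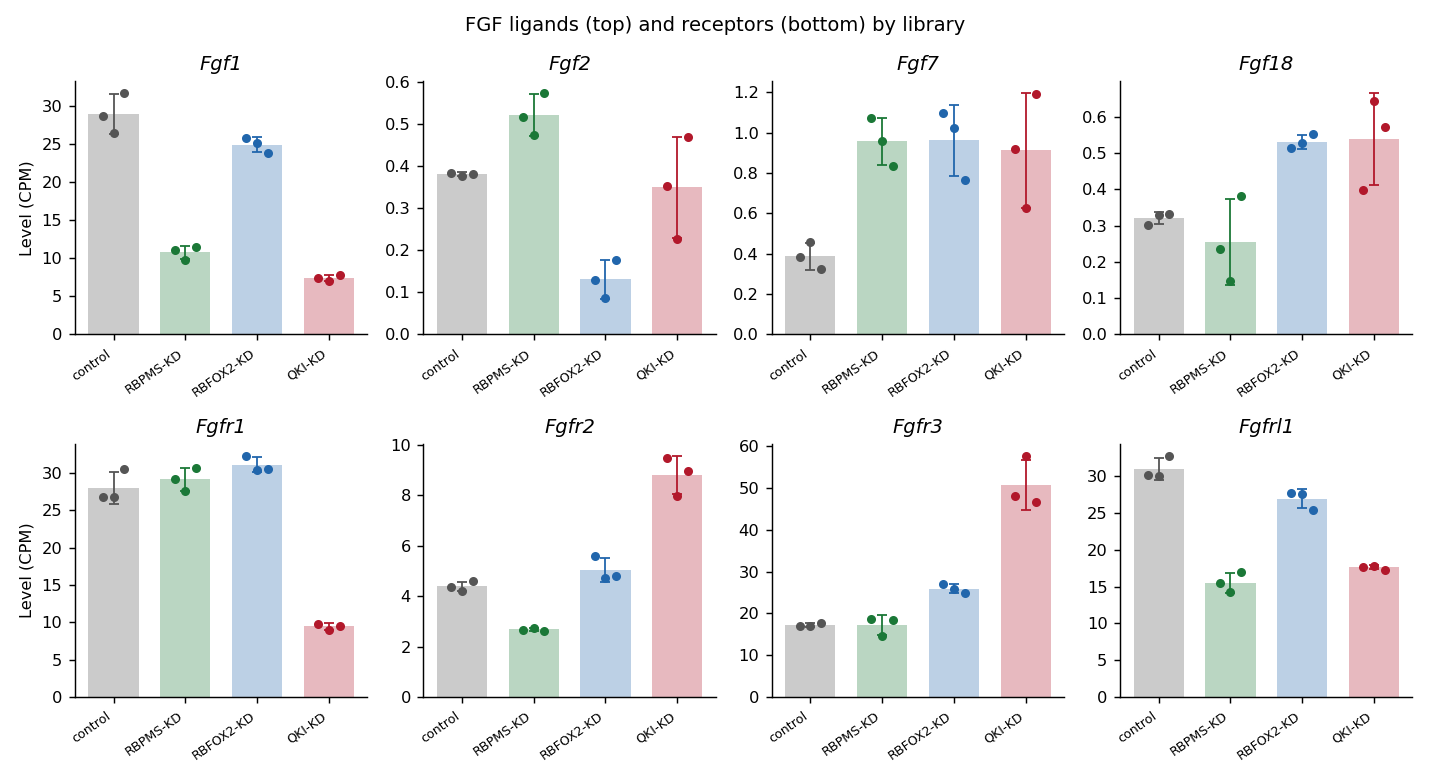
Level in CPM (linear axes from 0, each with its own scale) of the 4 tested ligands (top) and the 4 receptors (bottom). Points are single libraries, bars the mean and error bars the SD of 3 libraries. Fgfr1 is low in the 3 QKI-KD libraries only, at 9.01 to 9.82 CPM, and Fgfr3 is highest there, at 46.7 to 57.7 CPM.

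The receptors differed in the direction of their change. Fgfr1, the receptor known as the main one in mesenchymal cells, was at 26.7, 26.8 and 30.5 CPM in control, 29.2, 27.6 and 30.7 in RBPMS-KD, 32.3, 30.5 and 30.6 in RBFOX2-KD, and 9.82, 9.01 and 9.53 in QKI-KD. The QKI-KD libraries were clearly below the rest, and the other 3 groups overlapped. Fgfr1 fell by 1.56 on the log2 scale in QKI-KD, or 2.96-fold (SE 0.0599, adjusted p 2.65e-13), and was lower there than in RBPMS-KD (RBPMS-KD minus QKI-KD 1.62, SE 0.0602, adjusted p 2.89e-13) and RBFOX2-KD (RBFOX2-KD minus QKI-KD 1.72, SE 0.0599, adjusted p 8.19e-14). The log2 fold change was 0.06 in RBPMS-KD (95% interval −0.05 to 0.17, adjusted p 0.389). A rise of 0.15 in RBFOX2-KD (adjusted p 0.0262) lost the threshold in 5 of 6 fits that left out 1 library, with adjusted p of up to 0.139.

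Fgfr3, a receptor best known as a brake on the growth of cartilage, moved the other way. It was at 17.1, 16.9 and 17.7 CPM in control, 18.6, 14.5 and 18.5 in RBPMS-KD, 27.0, 25.9 and 25.0 in RBFOX2-KD, and 48.0, 57.7 and 46.7 in QKI-KD. Control and RBPMS-KD overlapped, RBFOX2-KD lay above both, and QKI-KD above all others. Fgfr3 rose by a log2 fold change of 1.56 in QKI-KD, or 2.95-fold (SE 0.0849, adjusted p 2.99e-11), and by 0.59 in RBFOX2-KD (SE 0.0849, adjusted p 1.09e-05), and these knockdowns differed from each other (RBFOX2-KD minus QKI-KD −0.97, SE 0.0828, adjusted p 1.3e-08). In RBPMS-KD the log2 fold change was −0.004 (95% interval −0.17 to 0.17, adjusted p 0.971).

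Fgfr2, whose epithelial and mesenchymal splice forms bind different ligands, was lower in RBPMS-KD and higher in QKI-KD than in control. It was at 4.34, 4.22 and 4.59 CPM in control, 2.66, 2.75 and 2.64 in RBPMS-KD, 5.57, 4.72 and 4.81 in RBFOX2-KD, and 9.48, 7.97 and 8.94 in QKI-KD. The 4 groups did not overlap, with RBPMS-KD lowest and QKI-KD highest. Fgfr2 fell by 0.71 on the log2 scale in RBPMS-KD (SE 0.0882, adjusted p 2.26e-06) and rose by 1.01 in QKI-KD (SE 0.0812, adjusted p 6.11e-09), and the difference, RBPMS-KD minus QKI-KD, was −1.71 (SE 0.086, adjusted p 1.72e-11). The rise of 0.20 in RBFOX2-KD (adjusted p 0.0462) lost the threshold in 4 of 6 fits that left out 1 library and in 4 of 9 other settings, with adjusted p of up to 0.283, so the step from control to RBFOX2-KD was at the limit of what these libraries resolve. The epithelial markers Epcam and Cdh1 were at 36 to 55 and 40 to 60 counts per library in QKI-KD against 6 to 10 and 6 to 16 in control. Of the other epithelial markers, Krt8 had a log2 fold change of 0.08 in QKI-KD (adjusted p 0.234), and Krt18 and Krt19, at up to 3 and 0 counts there, were not tested. The part of these markers in the Fgfr2 level was not tested.

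Fgfrl1, the receptor without a kinase domain, was lower in every knockdown. It was at 30.2, 30.1 and 32.8 CPM in control, 15.4, 14.2 and 16.9 in RBPMS-KD, 27.8, 27.5 and 25.4 in RBFOX2-KD, and 17.7, 17.9 and 17.3 in QKI-KD. No library of a knockdown reached the control range, and the 4 groups did not overlap. Fgfrl1 fell by 0.999 on the log2 scale in RBPMS-KD (SE 0.0588, adjusted p 2e-10), by 0.815 in QKI-KD (SE 0.0582, adjusted p 1.17e-09) and by 0.205 in RBFOX2-KD (SE 0.0569, adjusted p 0.00498). RBPMS-KD minus QKI-KD was −0.18 (SE 0.0598, adjusted p 0.0134), a difference that missed the threshold in 1 of 6 fits that left out 1 library (adjusted p 0.0619), and RBFOX2-KD was above both. Fgf1 and Fgfrl1 thus shared the order of control, then RBFOX2-KD, then the other two, though RBPMS-KD and QKI-KD changed places between them.

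The balance between receptors was read from count ratios within a library, which do not depend on scaling and are compared here only across groups. Fgfr3 counts per Fgfr1 count were 0.639, 0.632 and 0.581 in control, 0.636, 0.526 and 0.603 in RBPMS-KD, 0.836, 0.850 and 0.818 in RBFOX2-KD, and 4.89, 6.40 and 4.90 in QKI-KD. The QKI-KD mean of 5.40 ± 0.871 (SD, n = 3) was 8.75 times that of control, 0.617 ± 0.0317, and no library of the other groups came near it. The ratio of Fgfr2 to Fgfr1 went from 0.157 ± 0.00605 in control to 0.929 ± 0.0411 in QKI-KD, 5.92 times as high, and was 0.0922 ± 0.00692 in RBPMS-KD and 0.162 ± 0.00950 in RBFOX2-KD. Both ratios in QKI-KD gave p = 0.1 against control in the exact two-sided permutation test, the smallest possible. The sum of Fgfr1, Fgfr2 and Fgfr3, without correction for length, was at 49.6 ± 2.76 CPM in control, 49.1 ± 3.70 in RBPMS-KD, 62.1 ± 2.42 in RBFOX2-KD and 69.1 ± 4.97 in QKI-KD (exact p 0.9, 0.1 and 0.1). In QKI-KD it moved by a smaller fold than any of its parts. The sum was 1.39 times that of control, while Fgfr1 was 2.96-fold lower, Fgfr2 2.01-fold higher and Fgfr3 2.95-fold higher.

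Fgfrl1 counts per count of the 3 kinase receptors were 0.626 ± 0.00416 in control, 0.317 ± 0.0105 in RBPMS-KD, 0.434 ± 0.0154 in RBFOX2-KD and 0.256 ± 0.0147 in QKI-KD, with no overlap between the groups (exact p 0.1 for each knockdown). The lower ratio came with a lower Fgfrl1 level in RBPMS-KD and with shifts of numerator and denominator in the other two.

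**Figure D3:**
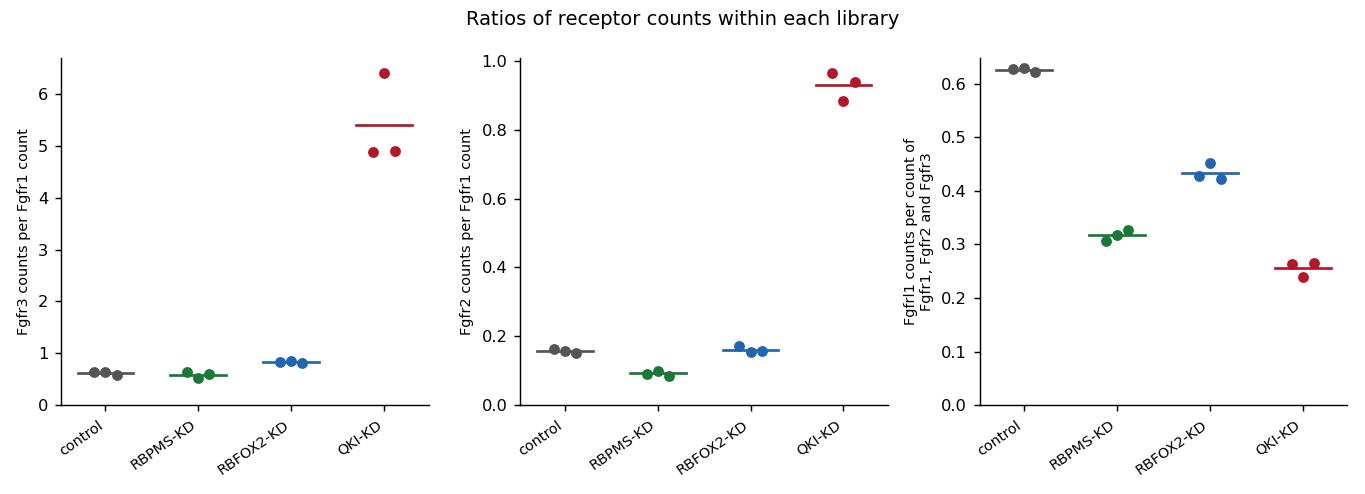
Ratios of receptor counts in each library (points) with group means (lines), on linear axes from 0. From left to right, Fgfr3 per Fgfr1, Fgfr2 per Fgfr1, and Fgfrl1 per summed Fgfr1, Fgfr2 and Fgfr3. QKI-KD stands above the other groups in the first 2 ratios, at 4.89 to 6.40 and 0.884 to 0.965, and control is highest in the last, at 0.621 to 0.628.

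The windows before the annotated starts of Fgfr2 and Fgfr3, which rose together in QKI-KD, and of Fgfrl1, which fell, are shown for their shared base composition. They are the 250 bases before the start in RefSeq (build GRCr8, not the authors' build), written 5′ to 3′ on the gene's strand, here the minus strand for each, with capitals for the GC box letters GGGCGG on either strand.
Fgfr2 (chr1:194280915-194281164): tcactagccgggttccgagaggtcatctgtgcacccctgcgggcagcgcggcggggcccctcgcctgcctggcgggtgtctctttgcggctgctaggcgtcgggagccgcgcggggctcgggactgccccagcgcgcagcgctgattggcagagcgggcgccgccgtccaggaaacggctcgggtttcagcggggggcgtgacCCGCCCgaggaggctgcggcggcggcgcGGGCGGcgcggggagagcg
Fgfr3 (chr14:81227210-81227459): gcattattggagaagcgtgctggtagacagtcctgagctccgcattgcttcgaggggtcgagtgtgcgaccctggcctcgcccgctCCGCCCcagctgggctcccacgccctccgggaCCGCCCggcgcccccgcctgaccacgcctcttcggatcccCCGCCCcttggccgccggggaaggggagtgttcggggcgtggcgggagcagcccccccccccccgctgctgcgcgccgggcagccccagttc
Fgfrl1 (chr14:1166335-1166584): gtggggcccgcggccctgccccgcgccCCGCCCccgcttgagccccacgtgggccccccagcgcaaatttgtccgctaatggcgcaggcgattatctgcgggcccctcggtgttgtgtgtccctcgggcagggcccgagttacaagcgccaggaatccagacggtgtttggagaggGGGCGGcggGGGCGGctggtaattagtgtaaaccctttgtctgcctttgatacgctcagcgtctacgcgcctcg
The GC box letters occurred 2 times before Fgfr2, 3 times before Fgfr3 and 3 times before Fgfrl1, and these windows held 76.8%, 74.4% and 67.2% G or C, against a median of 51.2% over 33469 such windows. A window was found for 9 of the 10 members, all but Fgfr1, and 5 of the 9 held the GC box letters (Fgf18, Fgf21, Fgfr2, Fgfr3 and Fgfrl1), against 30.5% of all windows. A high share of G or C was not particular to the windows shown, with 82% before Fgf18 and 67.2% before Fgf10. It was 56.4% before Fgf21, 46.8% before Fgf2, 46% before Fgf1 and 41.6% before Fgf7. The TATA box letters TATAAA, on either strand, occurred before Fgf7 and Fgf21 (2 of 9, against 12.9% of all windows), the letters CCAAT before Fgf7, Fgfr2 and Fgfr3 (3 of 9, against 34%), and the E box letters CACGTG before Fgf21 and Fgfrl1 (2 of 9, against 5.59%). The motifs were searched separately, and CCAAT was shared by Fgfr2 and Fgfr3 but not Fgfrl1. Which start PAC1 cells use was not tested.

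For the 3 members with the widest range of group means among the 5 with at least 5 CPM, the genes with the most similar profile were sought over the 4 group means of log2 CPM, each centred on its own mean, among 10046 genes with at least 5 CPM. Fgf2, whose groups differed by up to 1.99, was below that level. The nearest to Fgf1 were Apba1, which encodes a neuronal adaptor protein, at a Euclidean distance of 0.19, and Alpk1, a kinase of innate immunity, at 0.30. Cast, which encodes the calpain inhibitor calpastatin, was among the 2 genes nearest to Fgfr1, at 0.10. Rasl10b, a Ras-like GTPase gene, at 0.12, and Shroom4, an actin-binding protein gene, at 0.38, were nearest to Fgfr2. With 4 points per gene and many candidates, these are descriptions of likeness only.

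The other FGF genes examined were 15 ligands or ligand-like genes and the receptor Fgfr4, of which 6 were tested. Called were 2 of 6 in RBPMS-KD (both lower), 3 in RBFOX2-KD (2 higher, 1 lower) and 4 in QKI-KD (1 higher, 3 lower), against 9.66%, 11.7% and 17.5% of all genes. The genes below were named after their values were seen. Fgf11, Fgf13 and Fgf14 are FGF homologous factors, which stay inside the cell, do not activate FGF receptors and bind voltage-gated sodium channels.

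Fgf11 was at 0.580, 0.712 and 1.15 CPM in control and lower in all 9 knockdown libraries, with log2 fold changes of −2.33 in RBPMS-KD (SE 0.335, adjusted p 1.19e-05), −1.16 in RBFOX2-KD (SE 0.296, adjusted p 0.0027) and −1.97 in QKI-KD (SE 0.32, adjusted p 3.52e-05). Fgf13 was at 0.727, 0.591 and 0.602 CPM in control, 1.32, 1.18 and 1.22 in RBPMS-KD, 1.65, 1.12 and 1.23 in RBFOX2-KD, and 0.303, 0.157 and 0.145 in QKI-KD. Its groups other than RBPMS-KD and RBFOX2-KD did not overlap: it rose in these 2 (log2 fold changes 0.955 and 1.06, adjusted p 0.000757 and 0.000248), fell by 1.63 in QKI-KD (adjusted p 2.19e-05), and differed between RBFOX2-KD and QKI-KD by 2.695 (SE 0.241, adjusted p 2.3e-08). Fgf14 fell by 1.01 in RBPMS-KD (adjusted p 0.000998) and by 2.65 in QKI-KD (adjusted p 1.01e-07), from a mean of 0.973 CPM in control to 0.482 and 0.153 CPM, and its log2 fold change in RBFOX2-KD was 0.33 (adjusted p 0.185). Fgf22, a secreted ligand of the Fgf7 subfamily, stayed within 16.6 to 21.2 CPM in all libraries, with log2 fold changes of 0.13, −0.13 and 0.04 in RBPMS-KD, RBFOX2-KD and QKI-KD. Fgf9 had 0, 0 and 2 counts in control and at most 13 in any library, so its higher calls in RBFOX2-KD and QKI-KD rest on few counts and no fold is given, and Fgfr4 did not pass the test in any knockdown (adjusted p 0.154 to 0.965).

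**Figure D4:**
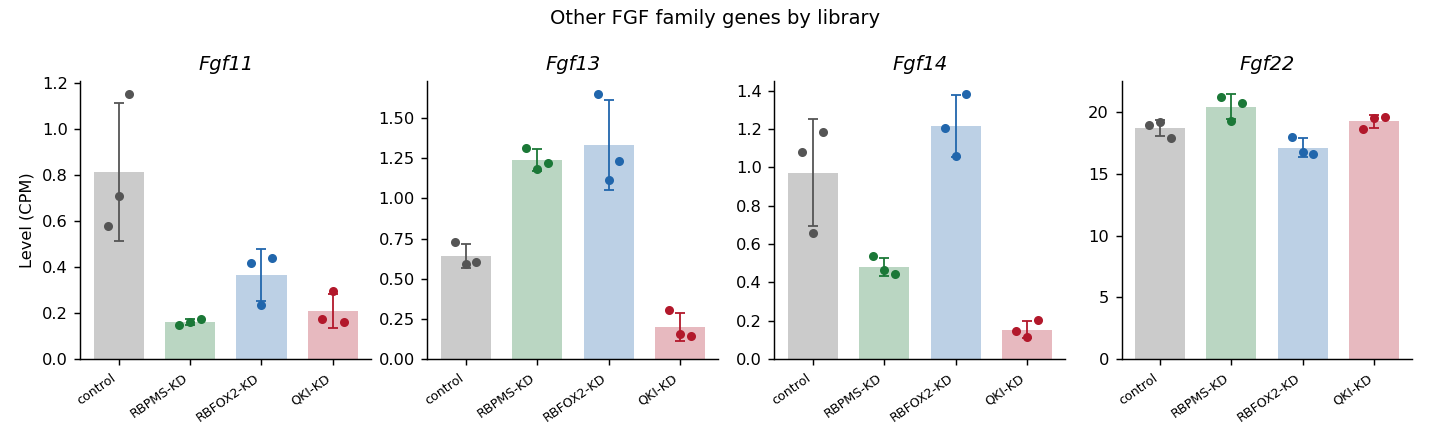
Level in CPM (linear axes from 0, each with its own scale) of 4 other FGF family genes, drawn as points for libraries, bars for means and error bars for the SD of 3 libraries. Fgf13 is above control in RBPMS-KD and RBFOX2-KD and below it in QKI-KD, while Fgf22 stays between 16.6 and 21.2 CPM.

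The rest of the pathway was read from 5 lists of genes. With the other FGF family, 79 of 92 listed genes were tested, and 9 (11.4%) were called in RBPMS-KD, 13 (16.5%) in RBFOX2-KD and 20 (25.3%) in QKI-KD, against the 9.66%, 11.7% and 17.5% of all genes. These shares of all genes are also the background for the counts of each list below. The median log2 fold change of all genes was 0.009, 0.015 and 0.007 in the same order.

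Co-receptors and binding proteins hold or present FGFs at the cell surface. Of 15 tested, 2 were called in RBPMS-KD (1 higher, 1 lower), 5 in RBFOX2-KD (2 higher, 3 lower) and 6 in QKI-KD (2 higher, 4 lower), with median log2 fold changes of −0.59, −0.06 and −0.11. The syndecans, membrane proteins that carry heparan sulphate, differed from one another in their changes. Sdc1 rose from 96.2 ± 3.63 CPM in control to 309.6 ± 12.1 in RBPMS-KD, 292 ± 2.30 in RBFOX2-KD and 241 ± 2.10 in QKI-KD (log2 fold changes 1.69, 1.605 and 1.33, largest adjusted p 3.4e-15). Sdc2 fell in all 3 (log2 fold changes −0.59, −1.15 and −1.27, largest adjusted p 1.55e-10), and so did Sdc3 (−0.71, −0.295 and −1.35, largest adjusted p 2.28e-05). Sdc4, named after its values were seen, was at log2 fold changes of −0.03 in RBPMS-KD (adjusted p 0.559), 0.18 in RBFOX2-KD (adjusted p 0.000721) and −0.11 in QKI-KD (adjusted p 0.0174). Flrt3, a membrane protein that interacts with FGF receptors, fell in RBPMS-KD (−0.46, adjusted p 0.00109) and QKI-KD (−1.26, adjusted p 1.55e-08), and was at 0.145 in RBFOX2-KD (adjusted p 0.231).

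Of 16 heparan sulphate enzymes, 1 was called in RBPMS-KD and 1 in RBFOX2-KD, both higher, and 3 in QKI-KD (2 higher, 1 lower), with medians of −0.17, 0.15 and −0.29. Hs6st2, which adds sulphate to the 6-O position of heparan sulphate, was called in all 3 knockdowns: it rose from 37.4 ± 3.30 CPM in control to 177 ± 3.73 in RBPMS-KD, 144 ± 0.882 in RBFOX2-KD and 127 ± 2.82 in QKI-KD (log2 fold changes 2.24, 1.94 and 1.76, largest adjusted p 3.4e-15). Ndst1, an N-deacetylase and N-sulphotransferase of the same chains, rose by log2 fold changes of 0.705, 0.89 and 1.165 (largest adjusted p 9.19e-09), and Hpse, the heparanase that cuts them, fell by 0.48, 0.74 and 1.095 (largest adjusted p 6.6e-05).

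In the signal relay from receptor to ERK, few genes passed the fold threshold. Of all genes, 9.66% were called in RBPMS-KD, 11.7% in RBFOX2-KD and 17.5% in QKI-KD. Of 20 genes, 0 were called in RBPMS-KD by edgeR or DESeq2 (12 at an adjusted and 13 at an unadjusted p under 0.05), 1 in RBFOX2-KD and 1 in QKI-KD, both lower, and the medians were −0.02, −0.08 and −0.03. By adjusted p alone 14 of 20 changed in RBFOX2-KD and 15 of 20 in QKI-KD. The share of all genes by that rule was 59.4% in RBPMS-KD, 60.3% in RBFOX2-KD and 66.9% in QKI-KD. Mapk3, which encodes ERK1 and was named after its values were seen, lay below the fold threshold, with a log2 fold change of 0.974 in RBPMS-KD (adjusted p 5.6e-13), 0.999 in RBFOX2-KD (adjusted p 2.48e-13) and 0.741 in QKI-KD (adjusted p 6.1e-12). Nras, a Ras GTPase, was at 199 ± 4.43 CPM in control and 94.97 ± 1.15 in RBFOX2-KD (log2 fold change −1.07, SE 0.0324, adjusted p 2.73e-14). Sos2, a Ras exchange factor, was at 47.7 ± 0.785 CPM in control and 21.8 ± 0.753 in QKI-KD (log2 fold change −1.13, SE 0.0529, adjusted p 4.01e-12).

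Of 12 feedback inhibitors, 0 were called in RBPMS-KD by edgeR or DESeq2 (8 at an adjusted and 8 at an unadjusted p under 0.05), 1 in RBFOX2-KD (lower) and 2 in QKI-KD (1 higher, 1 lower), with medians of −0.15, −0.07 and −0.34. Dusp6, an ERK phosphatase that ERK signalling induces, went from 130.7 ± 7.80 CPM in control to 81.0 ± 2.26 in RBPMS-KD, 113.5 ± 3.23 in RBFOX2-KD and 51.8 ± 1.44 in QKI-KD (log2 fold changes −0.69, −0.204 and −1.335, largest adjusted p 0.000483). Spred3, a Sprouty-related inhibitor of Ras signalling, rose in QKI-KD from 16.0 ± 0.556 to 40 ± 0.757 CPM (log2 fold change 1.32, adjusted p 3.97e-13), so the 2 inhibitors called in QKI-KD went in opposite directions.

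Of 10 genes known to respond to FGF and ERK signalling, 4 were called in RBPMS-KD (3 higher, 1 lower), 2 in RBFOX2-KD (both lower) and 4 in QKI-KD (all lower), with medians of 0.10, −0.15 and −0.47. Ccnd1, which encodes the G1 cyclin D1, fell from 1262 ± 53.2 CPM in control to 268 ± 7.40 in QKI-KD (log2 fold change −2.23, SE 0.0366, adjusted p 6.71e-18), while it rose by 0.23 in RBPMS-KD and 0.30 in RBFOX2-KD (adjusted p 2.17e-05 and 8.68e-07). Etv1, an ETS transcription factor, fell in all 3 knockdowns, by 0.85, 0.53 and 1.47 on the log2 scale (largest adjusted p 2.58e-08). Myc rose in RBPMS-KD (1.29, adjusted p 3.79e-13) and RBFOX2-KD (0.78, adjusted p 1.59e-10) and was at 0.01 in QKI-KD (adjusted p 0.893). Ier3, an immediate early gene, rose in RBPMS-KD (1.41, adjusted p 5.07e-11) and QKI-KD (0.92, adjusted p 6.12e-09) and was at −0.105 in RBFOX2-KD (adjusted p 0.237). These genes also respond to other signals, and the part of the ligand and receptor changes in them was not tested.

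**Figure D5:**
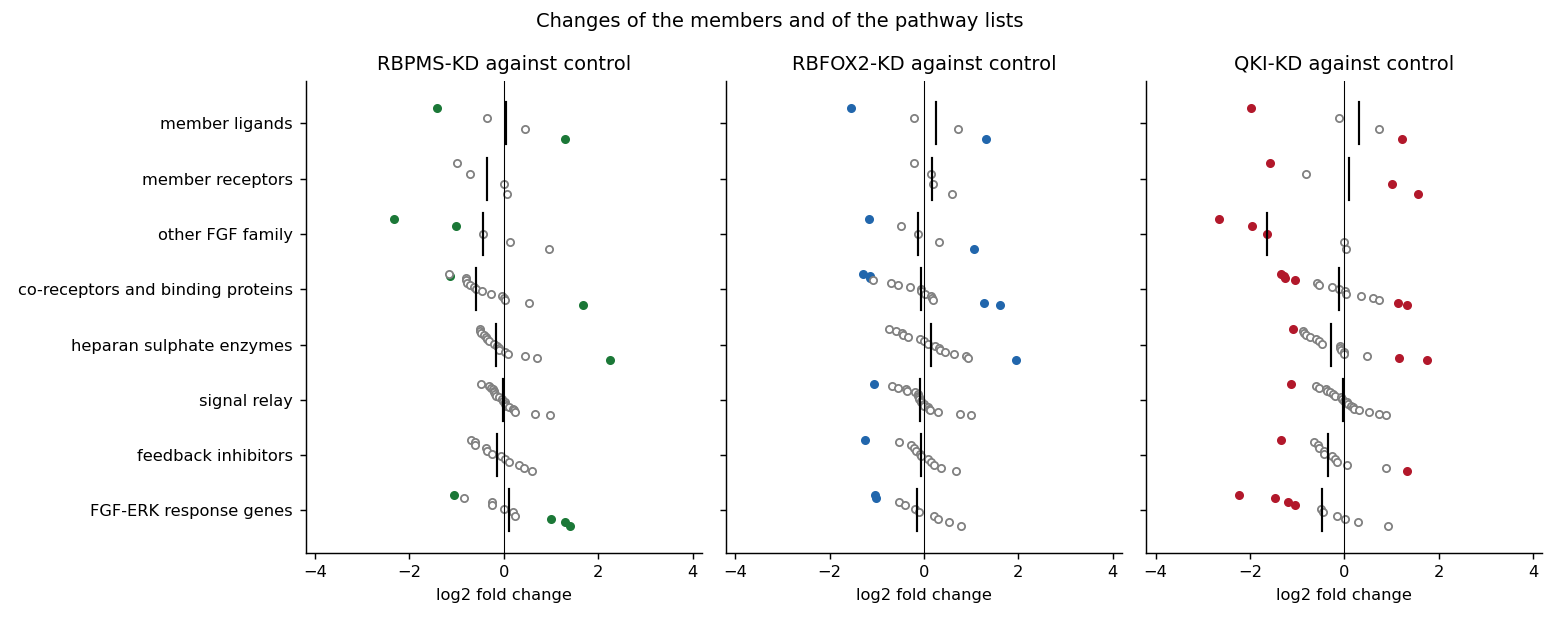
Log2 fold change of each tested gene in the 2 member lists and 6 other lists, for each knockdown against control. Filled points are called genes, open points are not, and the vertical line in each row is the median. Fgf9, at the floor in control, is left out. In QKI-KD the 4 called FGF-ERK response genes all lie below 0.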

How the data were processed

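RNA-seq of 12 PAC1 libraries (4 groups of 3, from the sample titles) was analysed from raw counts per gene deposited by the authors, with their normalised signal as an alternative. Per the labels, STAR 2.5.2a and the build mRatBN7.2 were among the tools, and per the study's methods counts were made with featureCounts and filtered with noisyR. The methods also describe subsampling to equal depth, whereas the deposited totals ranged from 111 to 152 M counts. Of the values from 1 to 19, 68.1% were even (17969 values of 2 against 6318 of 1), and halving the counts was therefore tried. The signal deposited by the authors was rebuilt from the counts by adding 5 and quantile normalisation, with a largest difference of 3.38e-09, and the added constant shrinks changes of low genes. Handling of strand and of reads shared by genes is not given in the sources used here, and in RefSeq the spans of Fgf1, Fgf2, Fgf7, Fgf10 and Fgfr1 overlap other genes.

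The test was that of edgeR 4.0.16, run in R 4.3.3 (filterByExpr, 18438 genes; TMM; glmQLFit over all 12 libraries with 1 coefficient per group; glmQLFTest, two-sided; Benjamini-Hochberg over all genes tested). SE is the log2 fold change over the square root of F, and 95% intervals are 1.96 SE. The common dispersion was 0.00241. The script was tested on simulated data. DESeq2 1.42.0, limma 3.58.1 (log2 with a pseudocount of 1), other scalings and filters, a replicate block and the omission of each library were alternatives, those for comparisons between knockdowns being added after the data were seen. Replicates of a group differed by more than sampling noise (chi-square per degree of freedom 4.64 to 57.8). The highest values were those of library RBPMS-KD 2, at 57.8 against RBPMS-KD 1 and 45.6 against RBPMS-KD 3. RBPMS-KD 1 against RBPMS-KD 3 gave 9.27. A group with at most 3 counts in each library was taken as at the floor. The 95% intervals cover only the spread between these libraries, as estimated by the fit. Members and lists were chosen with earlier results of these data known. Named beside the members are the siRNA targets, up to 4 called genes per list with a mean of at least 1 CPM by largest change, and for the 3 of widest range among the members averaging 5 CPM or more, the 2 genes with nearest group means. A gene that this rule takes is not reported here.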

Additional observations from a re-analysis of the deposited data

Results flagged for a closer look

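Of the differences between knockdowns, 2 members moved in opposite directions against control with the difference itself past the test. Fgfr1 had a log2 fold change of 0.15 in RBFOX2-KD and −1.56 in QKI-KD, a difference of 1.72 (edgeR adjusted p 8.19e-14), and over the fits that left out 1 library this difference stayed between 1.67 and 1.74, although the small rise in RBFOX2-KD was lost in 5 of 6 of them. Fgfr2 had a log2 fold change of −0.71 in RBPMS-KD and 1.01 in QKI-KD, a difference of −1.71 (adjusted p 1.72e-11), which stayed between −1.78 and −1.66. Both effects are measured against the same 3 control libraries.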

How the results depend on the processing

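The alternatives against control kept the direction of every member that passed the test. Of the log2 fold changes recomputed over all comparisons, 654 kept direction and side of the threshold, 28 lost and 5 gained the threshold, and 15 changed sign. By adjusted p alone the members changed were 4 in RBPMS-KD, 8 in RBFOX2-KD, 6 in RBPMS-KD against RBFOX2-KD and 6 in RBFOX2-KD against QKI-KD. Of the 79 listed genes tested, 55, 58 and 60 changed by that rule in RBPMS-KD, RBFOX2-KD and QKI-KD, against 59.4%, 60.3% and 66.9% of all genes. With glmTreat against a log2 fold change of 1 the members were 1, 0 and 3 against control, and 1 in RBPMS-KD against RBFOX2-KD. A mean of at least 200 counts, under which Fgf2, Fgf7 and Fgf18 are not tested, left 0 in RBFOX2-KD and 1 in RBPMS-KD against RBFOX2-KD. Leaving out 1 library gave 3 to 5 members in QKI-KD, 3 being without QKI-KD 3.

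The sign changes were all in differences that did not pass the test. The Fgf7 difference between RBPMS-KD and RBFOX2-KD was 0.107 in the normalised table and −0.148 to 0.098 leaving out 1 library. Between RBPMS-KD and QKI-KD it was −0.067 with library totals and −0.145 to 0.297 leaving out 1 library, and between RBFOX2-KD and QKI-KD −0.139 to 0.302. Leaving out 1 library gave −0.205 to 0.123 for Fgf18 in RBFOX2-KD against QKI-KD, −0.379 to 0.108 for Fgf2 in QKI-KD and −0.064 to 0.106 for Fgfr3 in RBPMS-KD. The cause was not tested.

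With library totals the median log2 difference of all genes was −0.108 in RBPMS-KD against RBFOX2-KD and −0.12 against QKI-KD, where it was −0.01 and 0.01 as reported, and they moved the share of higher calls from 41.3% to 31% and from 53.6% to 41.4%. Over the 6 comparisons, all-gene calls were 1386 to 3389, against 435 to 1515 with a mean of at least 200 counts and 313 to 1791 with glmTreat. Same-numbered libraries did not deviate together (r −0.0545 to 0.0389), so no strong shared replicate effect was seen. These r values cannot tell whether such libraries were handled together. With the replicate block the members changed were 2, 2 and 5 against control and 3, 4 and 3 between knockdowns, and the block changed 0 member calls. Depth limits Fgf2, Fgf7 and Fgf18, at 12 to 152 counts per library, and Fgf10 and Fgf21 most.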
